A study of Mus musculus with 6 samples.

Results

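The mitochondrial ribosomal proteins were examined in the liver as all genes of the deposited table whose symbol begins with Mrpl or Mrps. There were 77 such genes among 24346, 48 named for the large subunit (Mrpl) and 29 named for the small subunit (Mrps). The mitochondrial ribosome, or mitoribosome, is a separate ribosome inside the mitochondrial matrix that translates the few proteins encoded by mitochondrial DNA, all of them core subunits of the respiratory chain and ATP synthase. Its RNAs come from mitochondrial DNA, whereas every one of its proteins is encoded in the nucleus, made in the cytosol and imported. Some of these proteins descend from bacterial ribosomal proteins and others were added in mitochondria, and the hepatocyte, a cell rich in mitochondria, carries many of these particles.

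Livers came from NASH model mice, in which steatohepatitis was produced by diet. Male C57BL/6J mice aged 8 weeks were fed CDAHFD (a high-fat diet without choline, with amino acids in place of protein) for 6 weeks, returned to normal chow and analysed 2 weeks later, and each had received 1 intravenous injection of serotype 8 adeno-associated virus (AAV8). In lipophagy mice the virus carried LDTS-eLIR, a lipid droplet-targeting sequence joined to an engineered LC3-interacting region that recruits the autophagy machinery to lipid droplets, and in control mice it carried LDTS-LIR mut, with that region mutated. Both constructs were driven by the TBG promoter, which limits expression to hepatocytes, and both groups carried the droplet-targeting sequence, so that no liver was without it or without the diet. Poly(A) RNA of 3 control livers and 3 lipophagy livers was sequenced in 100 bp paired-end mode. Replicate numbers were read only as names of the livers, since the labels state no pairing. The labels also do not say how the livers of a group were sampled, so p-values measure the spread between these 6 libraries, which may be partly technical.

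The values are FPKM (fragments per kilobase of transcript, scaled to all mapped fragments), so that levels can be compared between genes per length. Comparisons between livers depend on their scaling, as given below. The depth behind them, estimated from the steps of the low values, was 23.4 to 33.2 M fragments in control livers and 22.8 to 24.2 M in lipophagy livers. Over all genes, control livers 1, 2 and 3 summed to 622696, 657300 and 681138 FPKM and lipophagy livers 1, 2 and 3 to 782392, 734436 and 709993 FPKM, so every lipophagy liver had a larger sum than every control liver. Hepatocyte markers, which define the labelled tissue, summed to 81420 to 90957 FPKM in control livers and 97741 to 125350 FPKM in lipophagy livers, with 11 of 13 higher in lipophagy livers as deposited and 6 of 13 with quantile normalization. Stellate cell and fibroblast markers summed to 193 to 201 FPKM in control livers and 149 to 178 FPKM in lipophagy livers, with 10 of 11 lower, and macrophage markers to 900 to 1145 and 870 to 1037 FPKM, with 9 of 13 lower. Bile duct markers were lower in 5 of 5 tested, at 137 to 247 and 92.0 to 196 FPKM, and neutrophil markers in 3 of 3. Sinusoidal endothelial markers were higher in 8 of 10 and lymphocyte markers in 3 of 5 tested, or in 3 and 1 with each liver scaled to the same FPKM total. Blood genes summed to 109 to 132 FPKM in control livers and to 169, 478 and 117 FPKM in lipophagy livers, and no list had a marker at 0 in all 6 livers. In bulk liver, fewer cells of a type and less RNA per cell cannot be told apart, and the part of cell mixture in the results below was not tested.

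All 77 genes were well above the lower limit of 0.5 FPKM for testing, with a mean level from 2.97 FPKM (Mrpl19) to 211 FPKM (Mrpl52), a span of 71.1-fold within 1 particle. Their median was 33.2 FPKM, 35.0 for the large and 29.1 for the small subunit, against 5.82 FPKM for the 11493 genes tested, and 83.3% of tested genes lay below the median of the mitoribosomal genes. On the log2(FPKM + 1) scale 75 of the 77 had a higher mean in lipophagy than in control livers, against 54.5% of all tested genes, with a median difference of 0.19 against 0.02. The differences were small, with an interquartile range of 0.14 to 0.25 and 16 genes over 1.2-fold, and the median SE of a single gene was 0.095. None of the 77 reached an adjusted p below 0.05 in the limma test with Benjamini-Hochberg adjustment over all tested genes, where 0.0261% of tested genes did. The lowest adjusted p among them was 0.134.

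Without adjustment, 33 of the 77 passed the 0.05 threshold with a higher mean and 0 with a lower one, where 11.5% and 7.97% of all tested genes did. In 34 genes all 3 lipophagy livers lay above all 3 control livers, where 15.4% of tested genes did, and in 0 genes they all lay below, where 10.8% did. For the large subunit 48 of 48 genes had a higher mean, 19 passed the unadjusted threshold and 19 had livers that did not overlap. For the small subunit the counts were 27 of 29, 14 and 15. The median difference was 0.18 for the large and 0.23 for the small subunit, and the same medians were obtained when Mrps18a and Mrps30, whose proteins sit in the large subunit, were counted there and Mrps36 was left out.

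**Figure D1:**
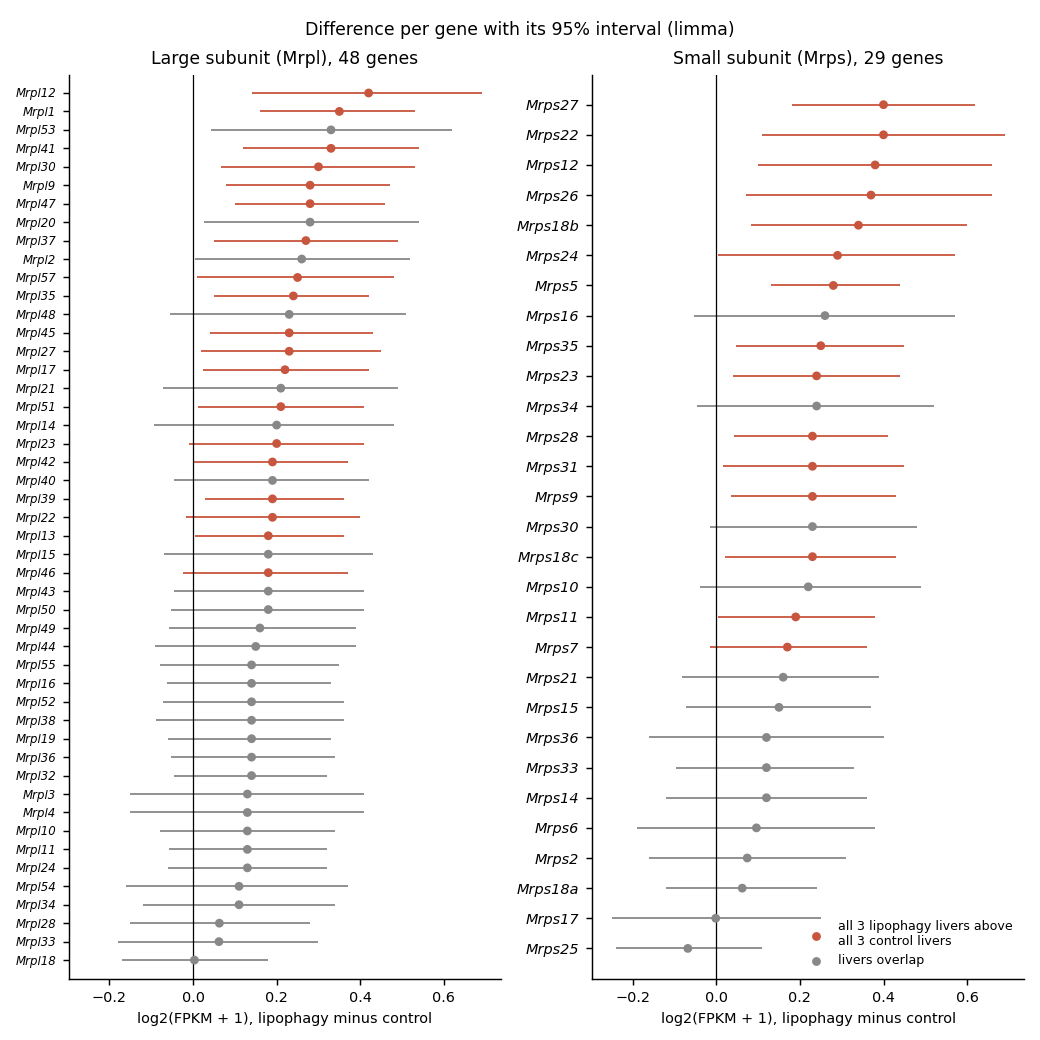
Difference of log2(FPKM + 1), lipophagy minus control livers, for each of the 48 large and 29 small subunit genes, with the 95% interval of limma as a line. In these deposited values all large subunit points and 27 of 29 small subunit points lie to the right of 0, and the 34 red points are genes whose 3 lipophagy livers were all above the 3 control livers.

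These values rest on how the livers are scaled to each other. The mitoribosomal genes summed to 3150, 3451 and 3545 FPKM in control livers 1, 2 and 3 and to 4212, 3937 and 3594 FPKM in lipophagy livers 1, 2 and 3. As a share of the FPKM total they made up 0.506% to 0.525% in control livers and 0.506% to 0.538% in lipophagy livers, so the shares overlapped. With each liver scaled to the same FPKM total, a setting chosen after seeing the data, 46 of 77 genes had a higher mean, against 22.6% of all tested genes, the median difference was 0.014 against -0.12, and 2 genes passed the unadjusted threshold with a higher mean, where 2.05% of tested genes did, and 1 with a lower mean, where 21.8% did. With quantile normalization 62 of 77 had a higher mean, against 52.0%, the median was 0.075 against 0.0074, and 10 passed the unadjusted threshold with a higher mean, where 6.48% of tested genes did, and 0 with a lower mean, where 7.82% did. No mitoribosomal gene reached an adjusted p below 0.05 in limma under either scaling, where 0.905% of tested genes did with the same total and 0.0348% with quantile normalization. The 10 genes past the unadjusted threshold with quantile normalization, Mrpl1, Mrpl12, Mrpl17, Mrpl35, Mrpl41, Mrpl47, Mrps5, Mrps12, Mrps22 and Mrps27, all passed it in the deposited values too, and Mrpl12 and Mrps27 passed it under all 3 scalings. Relative to the median of all tested genes, 74 of 77 lay above it in the deposited values, 60 under quantile normalization and 74 with the same total.

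**Figure D2:**
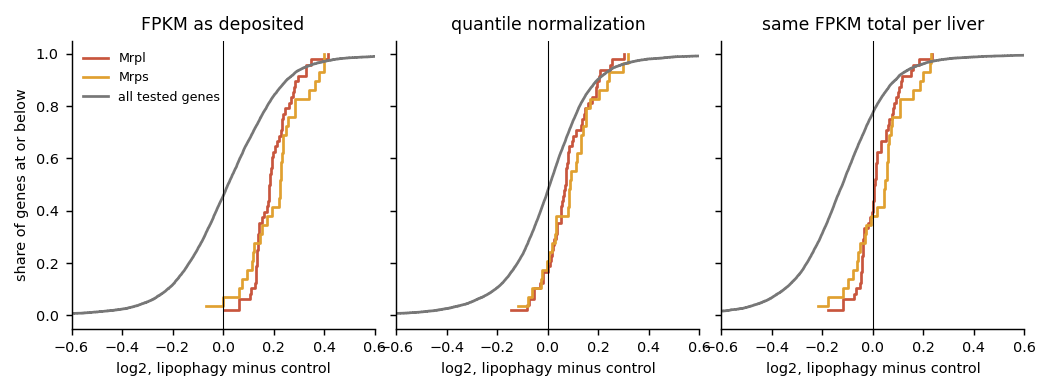
Cumulative share of genes by their difference in log2(FPKM + 1), lipophagy minus control, for Mrpl genes (red), Mrps genes (yellow) and all tested genes (grey), under 3 scalings of the livers. The mitoribosomal curves lie to the right of the grey curve over most of their range in each panel, while their median moves from 0.19 in the deposited values to 0.075 with quantile normalization and 0.014 with the same FPKM total.

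The livers of a group were not alike. Over the 77 genes, control livers 1, 2 and 3 deviated from each gene's own mean by -0.19, -0.063 and -0.047 (log2) on average and lipophagy livers 1, 2 and 3 by 0.20, 0.10 and -0.009. Control liver 1 was the lowest control in 62 genes, lipophagy liver 1 was the highest of all 6 livers in 56, and lipophagy liver 3 was the lowest of its group in 63. Lipophagy liver 1 was above every control in 72 genes and lipophagy liver 2 in 64, but lipophagy liver 3 in 37. Both subunits showed this order of livers, with large subunit deviations of -0.19, -0.062 and -0.037 against 0.19, 0.12 and -0.012 and small subunit deviations of -0.18, -0.065 and -0.065 against 0.24, 0.078 and -0.0041. Pairs of genes deviated together within groups, with a median pairwise correlation of 0.65 over 6 livers that share library and scaling. Without lipophagy liver 1 the median difference was 0.14 and 10 genes passed the unadjusted threshold. Without control liver 1 the values were 0.16 and 15, and without lipophagy liver 2 they were 0.18 and 18. Leaving out control liver 2 gave 0.21 and 21 and leaving out control liver 3 gave 0.23 and 21, whereas without lipophagy liver 3 the median was 0.25 and 43 genes passed. The share of all tested genes past the threshold was not counted in these fits.

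**Figure D3:**
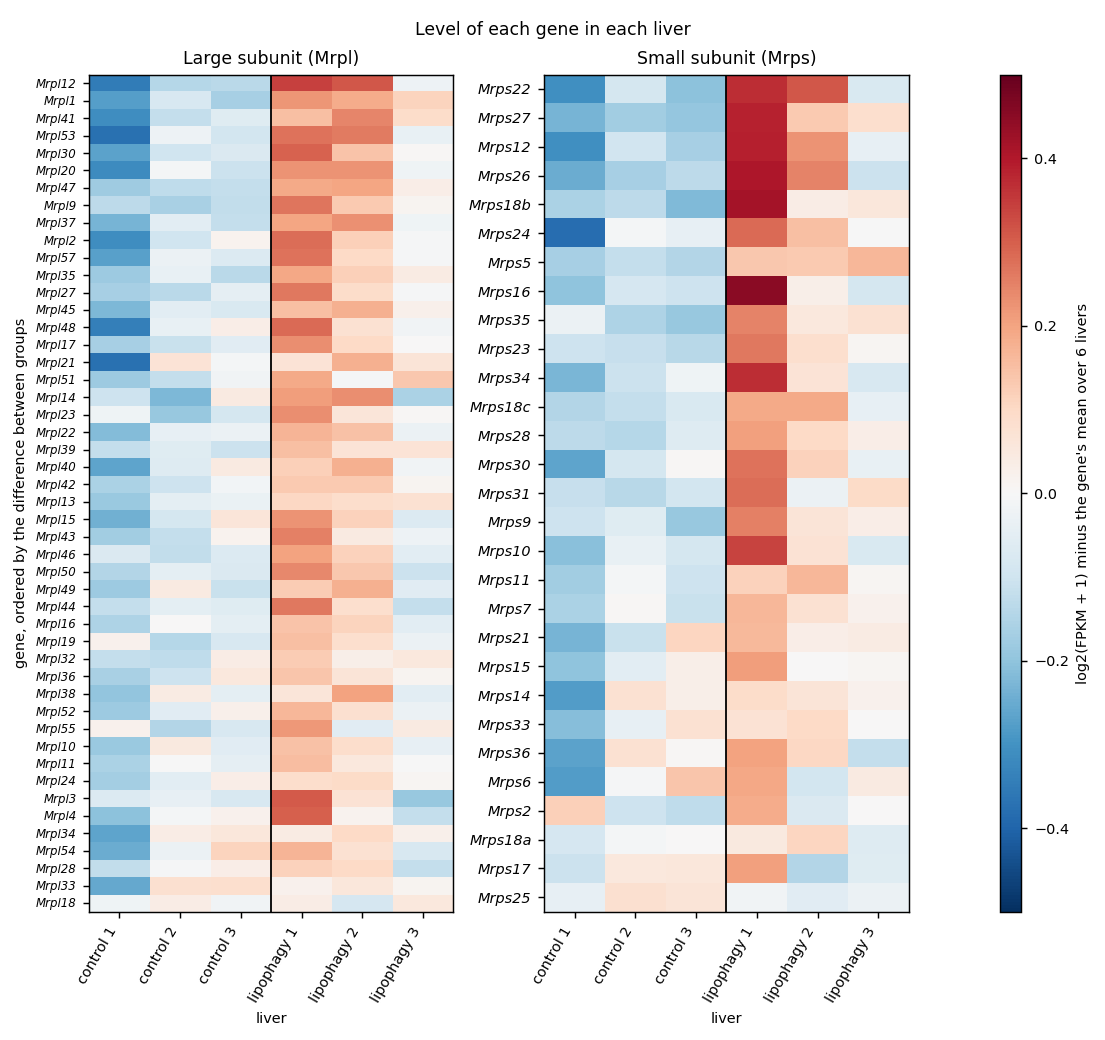
Level of each of the 77 genes in each liver, as log2(FPKM + 1) minus the gene's mean over the 6 livers, with red above and blue below that mean. Control liver 1 is the bluest column and lipophagy liver 1 the reddest, and lipophagy liver 3 is close to white.

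The genes with the largest differences are shown first, by what their proteins do. Mrpl12 encodes the protein of the L7/L12 stalk, the flexible arm by which translation factors reach the ribosome, and it also binds the mitochondrial RNA polymerase. It was at 149, 172 and 173 FPKM in control livers 1, 2 and 3 and at 241, 236 and 187 FPKM in lipophagy livers 1, 2 and 3. Lipophagy livers 1 and 2 were well above the controls and liver 3 just above them. The difference was 0.42 (SE 0.12), the largest of the 77 as deposited, with an adjusted p of 0.16 in limma. It was also the largest with the same FPKM total, at 0.24. With quantile normalization it was 0.25, below Mrps27 at 0.32, and in some fits with a liver left out Mrps27 or Mrps22 was larger. Mrpl10, which holds the stalk to the ribosome, and Mrpl11, at its base, both had a difference of 0.13 with overlapping livers, which became -0.047 and -0.037 with the same FPKM total. Mrpl1, which forms the opposite stalk where tRNAs leave, was at 7.72, 8.98 and 8.40 FPKM in control livers and 11.3, 11.0 and 10.4 FPKM in lipophagy livers. Here the 3 lipophagy livers were close to each other and apart from the controls, with a difference of 0.35 (SE 0.082) and an adjusted p of 0.134.

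Mrps27, a mitochondria-specific protein with RNA-binding repeats, was at 14.0, 14.6 and 14.4 FPKM in control livers and 22.0, 18.3 and 17.7 FPKM in lipophagy livers. The controls differed by less than 1 FPKM and every lipophagy liver was above them, and the difference was 0.40 (SE 0.095, adjusted p = 0.134). Mrps22, another mitochondria-specific protein, whose loss in people causes mitochondrial disease, was at 17.9, 21.0 and 19.3 FPKM and at 29.2, 28.0 and 21.2 FPKM. Its lipophagy liver 3 lay only just above control liver 2, with a difference of 0.40 (SE 0.13). Mrps12, a protein of the decoding centre, was at 53.6, 62.2 and 59.2 FPKM in control livers and 87.4, 77.9 and 64.6 FPKM in lipophagy livers, without overlap and with a difference of 0.38 (SE 0.12). Both Mrps22 and Mrps12 had an adjusted p of 0.179. Mrps26, also mitochondria-specific, was at 24.0, 25.5 and 26.1 FPKM and at 38.3, 34.3 and 26.6 FPKM, so that lipophagy liver 3 was only just above control liver 3, and its difference was 0.37 (SE 0.13). Mrps24, near the entry of the mRNA channel, differed by 0.29 (SE 0.12). Mrps5, a core protein of the same region, was at 29.4, 30.4 and 29.8 FPKM in control livers and 36.4, 36.3 and 37.2 FPKM in lipophagy livers. With Mrpl18 it was 1 of 2 genes in which lipophagy liver 3 was the highest of the 6, and its difference of 0.28 had the small SE of 0.069 (adjusted p = 0.135).

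**Figure D4:**
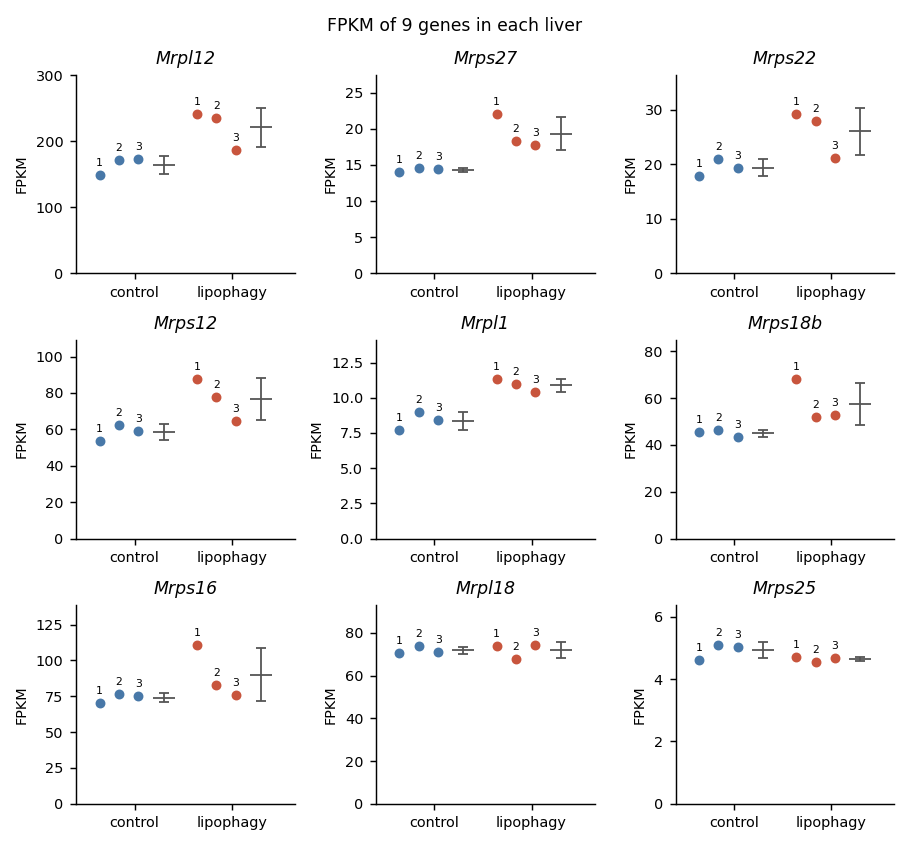
FPKM of 9 genes in each liver (points, numbered by replicate), with the mean and SD of each group of 3 beside the points and axes that start at 0. Lipophagy liver 1 is the highest lipophagy point in all genes shown but Mrpl18, and the groups overlap in Mrps16, Mrpl18 and Mrps25 and are apart in the other 6.

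Promoters are shown for the 3 genes with the largest differences as deposited and, for contrast, for Mrps17, whose deposited difference was nearest to 0. They are RefSeq sequences of build GRCm38.p6, from 250 bases before the start to 30 after it, read 5′ to 3′ on the gene's strand, and capitals mark matches to the motifs searched. Mrpl12 starts in chr11:120484387-120484666 (+ strand), Mrps27 in chr13:99344536-99344815 (+), Mrps22 in chr9:98601650-98601929 (- strand) and Mrps17 in chr5:129715247-129715526 (+).
Mrpl12: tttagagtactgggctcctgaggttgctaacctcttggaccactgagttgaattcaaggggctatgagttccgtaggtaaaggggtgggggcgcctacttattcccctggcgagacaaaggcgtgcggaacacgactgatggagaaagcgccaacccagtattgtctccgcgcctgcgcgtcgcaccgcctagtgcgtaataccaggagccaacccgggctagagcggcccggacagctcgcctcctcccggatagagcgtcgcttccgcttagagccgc
Mrps27: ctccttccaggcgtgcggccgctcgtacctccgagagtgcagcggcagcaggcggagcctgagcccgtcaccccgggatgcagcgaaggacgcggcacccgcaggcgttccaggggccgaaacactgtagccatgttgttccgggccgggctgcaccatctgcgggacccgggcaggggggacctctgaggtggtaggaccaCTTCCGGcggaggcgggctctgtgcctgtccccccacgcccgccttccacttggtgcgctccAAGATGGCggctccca
Mrps22: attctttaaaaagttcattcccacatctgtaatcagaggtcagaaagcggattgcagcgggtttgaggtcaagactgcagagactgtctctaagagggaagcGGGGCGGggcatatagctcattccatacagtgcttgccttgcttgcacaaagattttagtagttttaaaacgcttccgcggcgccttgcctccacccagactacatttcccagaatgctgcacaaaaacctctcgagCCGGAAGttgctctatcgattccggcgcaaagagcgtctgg
Mrps17: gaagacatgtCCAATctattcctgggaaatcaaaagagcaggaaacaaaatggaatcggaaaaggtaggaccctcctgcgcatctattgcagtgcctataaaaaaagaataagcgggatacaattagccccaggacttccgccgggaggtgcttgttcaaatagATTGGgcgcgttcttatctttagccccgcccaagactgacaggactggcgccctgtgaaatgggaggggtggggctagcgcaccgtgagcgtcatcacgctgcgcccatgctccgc

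The capitals in Mrps27 are an ETS/GABP motif (CCGGAAG, here on the reverse strand) before the start and a YY1 motif (AAGATGGC) after it. Those in Mrps22 are an SP1 motif (GGGGCGG) and an ETS/GABP motif directly before the start, and those in Mrps17 are 2 NF-Y motifs (CCAAT). The Mrpl12 stretch holds no match, and 1 ERR motif (AAGGTCA, reverse strand) lies 33 bases after its start. Windows of 300 bases, with 50 after the start, were given for 68 of the 77 genes, of which the first listed was used, and for 8819 tested genes. Searched on both strands, the ETS/GABP motif was in 35.3% of mitoribosomal windows and 18.8% of tested windows, YY1 in 17.6% and 4.90%, and NRF1 (GCGCATGCG) in 10.3% and 3.83%. SP1 was in 35.3% and 43.1%, NF-Y in 39.7% and 39.1%, MYC (CACGTG) in 7.35% and 10.5%, and ERR in 5.88% and 3.48%. Among all 32851 windows the shares were 8.86% for ETS/GABP, 2.75% for YY1, 1.75% for NRF1, 23.2% for SP1, 37.4% for NF-Y, 7.15% for MYC and 4.72% for ERR. The median difference was 0.22 for the 24 genes with an ETS/GABP match and 0.19 for the 44 without, 0.19 and 0.20 for the 12 with and 56 without a YY1 match, and 0.19 and 0.20 for the 7 with and 61 without an NRF1 match. It was 0.26 for the 5 with and 0.19 for the 63 without a MYC match, 0.15 and 0.20 for the 4 with and 64 without an ERR match, 0.20 and 0.19 for the 24 with and 44 without an SP1 match, and 0.19 and 0.20 for the 27 with and 41 without an NF-Y match. These matches describe the letters only.

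The 77 genes lie on 17 chromosomes, with at most 10 on 1 of them, chromosome 11. In the GENCODE annotation of GRCm38, 18 of the 77 (23.4%) have their start within 1000 bp of that of a protein-coding gene read in the opposite direction, away from it, against 10.5% of tested protein-coding genes. Of the 17 partners tested, none of them mitoribosomal, 13 had a higher mean in lipophagy livers, where 54.5% of all tested genes did. Their median difference was 0.13, against 0.02 for all tested genes. Partner values were taken as deposited only, and whether partners change together was not tested. Mrps27 and its partner Ptcd2, 81 bp apart, differed by 0.40 and 0.35. Mrps12 and its partner Sars2, a mitochondrial tRNA synthetase gene, differed by 0.38 and 0.19, whereas Mrpl30 and Mitd1 differed by 0.30 and -0.09 and Mrpl51 and Ncapd2 by 0.21 and -0.21.

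Among the other large subunit genes, Mrpl41, a mitochondria-specific protein, was at 9.68, 11.2 and 11.7 FPKM in control livers and 13.7, 14.7 and 13.1 FPKM in lipophagy livers, without overlap. Its difference was 0.33 (SE 0.092, adjusted p = 0.157), on an estimated 112 to 170 fragments, few for a gene of this group. Mrpl53, mitochondria-specific too, had the same difference of 0.33 with more spread (SE 0.12) and lipophagy liver 3 at 67.6 FPKM, below control liver 2 at 68.1 FPKM. Mrpl30 was at 91.6, 103 and 105 FPKM and at 136, 122 and 111 FPKM, a difference of 0.30 (SE 0.10) without overlap. Mrpl20, whose bacterial counterpart is needed early in assembly, differed by 0.28 (SE 0.11), with lipophagy liver 3 at 106 FPKM beside control liver 2 at 107 FPKM. Mrpl35, one of the scarcer members at a mean of 8.04 FPKM, differed by 0.24 (SE 0.081) without overlap.

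Around the exit of the polypeptide tunnel 8 of 8 genes had a higher mean, with a median of 0.20, and 4 passed the unadjusted threshold, where 54.5% of all tested genes were higher and 11.5% passed. With quantile normalization the median was 0.08 with 7 of 8 higher and 2 past the threshold, where 52.0% and 6.48% of all tested genes were. With the same FPKM total it was 0.017 with 6 of 8 higher and 0 past it, where 22.6% and 2.05% were. As deposited the 8 genes ran from Mrpl24 at 0.13 to Mrpl47 at 0.28. Mrpl45, which fixes the ribosome to the inner membrane so that new respiratory chain subunits are inserted there, was at 11.7, 13.3 and 13.1 FPKM in control livers and 15.5, 15.8 and 14.1 FPKM in lipophagy livers. The groups did not overlap, and the difference was 0.23 (SE 0.084, adjusted p = 0.206).

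The most abundant members did not all have large differences. Mrpl52, with the highest level, was at 185, 202 and 214 FPKM in control livers and 236, 222 and 206 FPKM in lipophagy livers, which overlap, with a difference of 0.14 (SE 0.093). Mrpl14, at the interface of the subunits, differed by 0.20 (SE 0.13) with lipophagy liver 3 at 106 FPKM, within the control range of 101 to 122 FPKM. In Mrps21 the difference was 0.16 (SE 0.10) at a mean of 146 FPKM, with overlap. Mrps16 rested on 1 liver, since it was at 70.4, 76.3 and 75.3 FPKM in control livers and 111, 82.7 and 76.1 FPKM in lipophagy livers, of which liver 3 was level with the controls. Its difference was 0.26 (SE 0.14, adjusted p = 0.325). At the other end, Mrpl19 was at 3.01, 2.58 and 2.74 FPKM and at 3.39, 3.19 and 2.88 FPKM, overlapping, a difference of 0.14 (SE 0.086). The 48 genes outside the naming rule, at 8.33 to 114 FPKM, had differences from 0.096 to 0.28 with a median of 0.18, and in 21 of them the lipophagy livers all lay above the controls, where 15.4% of all tested genes did. Over the 77 genes the difference was not tied to the level, with a Spearman's rho of 0.039, given as a description.

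On the log2(FPKM + 1) scale of the deposited values 2 genes had a lower mean, against 15 of 77 with quantile normalization and 31 of 77 with the same FPKM total. Mrps25, a mitochondria-specific protein of the small subunit, was at 4.62, 5.10 and 5.04 FPKM in control livers and 4.71, 4.56 and 4.66 FPKM in lipophagy livers. It was the lowest of the 77, with a difference of -0.068 (SE 0.075, 95% interval -0.24 to 0.11) and overlapping livers. Mrps17 was at 22.7, 25.5 and 25.6 FPKM and at 28.5, 22.1 and 23.5 FPKM, a difference of -0.0013 with an interval of -0.25 to 0.25, so that lipophagy liver 1 alone was above the controls. Mrpl18 was at 70.8, 73.7 and 70.9 FPKM and at 73.7, 67.8 and 74.5 FPKM, a difference of 0.0033 with an interval of -0.17 to 0.18. Mrpl33 differed by 0.062, Mrpl28 by 0.063 and Mrps2 by 0.074, all with overlapping livers. The intervals of these genes reach from below 0 to above 0, as did those of all 44 genes that did not pass the unadjusted threshold.

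Gene names and places in the ribosome part company for a few members. Mrps18a, Mrps18b and Mrps18c are related proteins, of which Mrps18c and Mrps18b sit in the small and Mrps18a in the large subunit. Mrps18b was at 45.4, 46.2 and 43.4 FPKM in control livers and 68.0, 52.0 and 52.8 FPKM in lipophagy livers, all above the controls, with a difference of 0.34 (SE 0.11, adjusted p = 0.186). Mrps18c, the member closest to the bacterial protein, differed by 0.23 (SE 0.089) without overlap, from 74.3 ± 1.83 FPKM (SD, n = 3) to 87.4 ± 7.99 FPKM. Mrps18a was at 48.7 ± 1.60 FPKM (SD, n = 3) and 51.0 ± 3.15 FPKM, a difference of 0.062 (SE 0.079) with overlap. Whether the 3 differ from each other was not tested. Mrps30, a large subunit protein in spite of its name, differed by 0.23 (SE 0.11), and Mrps36, a subunit of the 2-oxoglutarate dehydrogenase complex rather than the ribosome, by 0.12 (SE 0.12), both with overlap.

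By origin, the large subunit genes with a bacterial counterpart had a median difference of 0.18, with 30 of 30 higher, where 54.5% of all tested genes were. Those listed as mitochondria-specific, with Mrps18a and Mrps30 counted among them, had a median of 0.19, with 20 of 20 higher. Mrps18a and, in the small subunit, Mrps18b were so listed although related to Mrps18c. In the small subunit the medians were 0.19, with 14 of 15 higher, and 0.24, with 10 of 11 higher. With the same FPKM total the large subunit medians were 0.0044, with 16 of 30 higher, and 0.0081, with 13 of 20 higher, and those of the small subunit 0.017, with 8 of 15 higher, and 0.063, with 9 of 11 higher. Of all tested genes 22.6% were higher under that scaling. With quantile normalization the 4 medians were 0.053, 0.072, 0.079 and 0.13. Proteins of the mitoribosome that carry other names gave a median of 0.27, with 6 of 6 higher and 3 past the unadjusted threshold, where 11.5% of all tested genes were. Their medians were 0.15 with quantile normalization and 0.088 with the same total, each with 1 past it, where 6.48% and 2.05% of all tested genes were. Chchd1 led them at 96.8 ± 10.0 FPKM (SD, n = 3) in control and 126 ± 8.19 FPKM in lipophagy livers, a difference of 0.38 (SE 0.10, adjusted p = 0.148), and Dap3, a core GTP-binding protein of the small subunit, was lowest at 0.18. Ict1, listed under the older name of Mrpl58, a peptidyl-tRNA hydrolase built into the large subunit, differed by 0.25.

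Transcripts of this group are short, with a median length of 1047 bases against 2010 for tested genes, and their GC content was 50.5% against 50.8%. Short genes as a whole had higher values in lipophagy livers, with a median difference of 0.077 over the 2332 tested genes under 1000 bases and -0.043 over the 1718 of more than 4000 bases. Within each length class the mitoribosomal median was above that of all tested genes. It was 0.19 against 0.077 for the 36 members under 1000 bases and 0.18 against 0.069 for the 19 of 1000 to 1500. It was 0.18 against 0.033 for the 11 of 1500 to 2500, 0.24 against -0.01 for the 8 of 2500 to 4000 and 0.14 against -0.043 for the 3 longer ones. After the trend of each liver on length and GC was taken off, the median was 0.15 with 74 of 77 higher, against a median of 0.005 for all tested genes. These values are from the deposited scaling.

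The rest of the mitochondrial translation apparatus was read from lists. Translation factors had a higher mean in 14 of 14 genes, with a median of 0.23 and 8 past the unadjusted threshold, from Tufm, the elongation factor, at 0.087 to Mtrf1, a release factor, at 0.34. Assembly factors were higher in 21 of 24, with a median of 0.15 and 4 past the threshold, near the 11.5% of all tested genes. Rpusd3, a pseudouridine synthase, led at 0.45 (SE 0.14, adjusted p = 0.177) with livers apart, and Ybey, an endoribonuclease, was lowest at -0.075. Mitochondrial tRNA synthetases and the glutaminyl amidotransferase were higher in 19 of 20, with a median of 0.15 and 3 past the threshold, also near that share, from Mars2 at -0.12 to Yars2 at 0.31. Genes for copying and transcribing mitochondrial DNA were higher in 10 of 11, with a median of 0.16 and 3 past the threshold, from Mterf1a at -0.14 to Peo1, the replicative helicase, at 0.28. With the same FPKM total per liver the medians of these 4 lists were 0.067, -0.013, -0.0061 and -0.0091, with 10 of 14, 10 of 24, 8 of 20 and 5 of 11 genes higher and 0 past the unadjusted threshold with a higher mean in any of them, where 2.05% of all tested genes were. With quantile normalization the medians were 0.15, 0.13, 0.15 and 0.11, with 5 of 14, 5 of 24, 1 of 20 and 3 of 11 genes past it with a higher mean, where 6.48% of all tested genes were.

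Known regulators of nuclear genes for mitochondria had a median difference of 0.041 as deposited, against 0.02 for all tested genes. Of the 10 genes 7 were higher, where 54.5% of all tested genes were. The unadjusted threshold was passed by 0 with a higher and 1 with a lower mean, where 11.5% and 7.97% of all tested genes passed. With the same FPKM total the median was -0.10, against -0.12, and 2 of 10 were higher, where 22.6% were. Then 0 passed with a higher and 2 with a lower mean, where 2.05% and 21.8% did. With quantile normalization the median was 0.052, against 0.0074, and 7 of 10 were higher, where 52.0% were. Here 1 passed with a higher and 1 with a lower mean, where 6.48% and 7.82% did. As deposited, Nrf1 differed by 0.097, Gabpa by 0.044, Gabpb1 by 0.039, Gabpb2 by -0.057, Yy1 by 0.026 and Esrra by 0.12, all with overlapping livers. The coactivator genes Ppargc1a, Ppargc1b and Pprc1 differed by 0.23, 0.077 and -0.10. Pprc1 was lower without overlap, where 10.8% of all tested genes were. Ppargc1a was low, at 0.854, 0.825 and 0.732 FPKM in control livers and 0.949, 0.861 and 1.61 FPKM in lipophagy livers. It was higher without overlap, where 15.4% of all tested genes were. Lipophagy livers 1 and 2 lay just above the controls and liver 3 well above them (SE 0.13, adjusted p = 0.353 in limma). Myc, which drives ribosome synthesis in growing cells, was at 11.6, 6.14 and 15.1 FPKM in control livers and 1.63, 2.11 and 1.20 FPKM in lipophagy livers. The groups were far apart, and the difference was -2.11 (SE 0.27) with an adjusted p of 0.071 in limma.

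Beside the mitoribosome, nuclear-encoded subunits of the respiratory chain had a median difference of 0.28, with 79 of 81 higher and 56 past the unadjusted threshold, and cytosolic ribosomal proteins 0.22, with 83 of 83 higher and 22 past it, where 54.5% of all tested genes were higher and 11.5% past it. With quantile normalization these medians were 0.10 and 0.015, with 68 and 50 genes higher and 14 and 1 past the threshold. Of all tested genes 52.0% were then higher and 6.48% past it with a higher mean. With the same FPKM total the medians were 0.10 and 0.035, with 70 and 51 genes higher and 14 and 0 past the threshold. Of all tested genes 22.6% were then higher and 2.05% past it with a higher mean. The mitoribosomal medians were 0.075 and 0.014 under these scalings. The livers kept a like order in the 3 lists. For the respiratory chain the mean deviations of control livers were -0.22, -0.11 and -0.075 and those of lipophagy livers 0.27, 0.11 and 0.031. For cytosolic ribosomal proteins they were -0.25, -0.10 and 0.01 in the controls against 0.24, 0.13 and -0.025. In the latter, control liver 3 was above lipophagy liver 3 as deposited, which in the mitoribosomal genes it was not as deposited but was with quantile normalization, at -0.016 against -0.028. Whether the lists differ from each other was not tested.

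**Figure D5:**
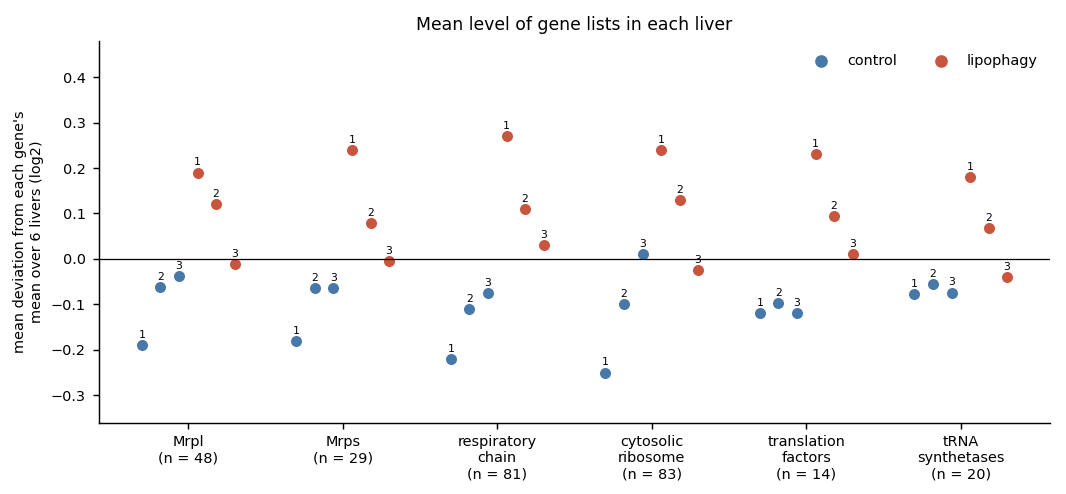
Mean deviation of 6 gene lists in each liver, as log2(FPKM + 1) minus each gene's mean over the 6 livers, with livers numbered by replicate and control livers in blue and lipophagy livers in red. In these deposited values the 3 lipophagy livers lie above the 3 control livers in both mitoribosomal lists, with lipophagy liver 3 at -0.012 and -0.0041, close to the controls, whereas with quantile normalization it lies below control livers 2 and 3 in the large and below control liver 2 in the small subunit list.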

How the data were processed

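RNA of 3 control and 3 lipophagy livers was analysed, with groups from the labels. Per gene symbol and liver, FPKM values were deposited by the authors. The submitters' processing notes name TopHat2 2.0.13, Bowtie2 2.2.3, SAMtools 0.1.19, Cufflinks 2.2.1 and build mm10. FPKM are scaled to transcript length and mapped fragments, are not counts, and follow any shift in a few abundant transcripts. The labels and the methods name different sequencers.

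Genes averaging 0.5 FPKM or more (11493) were tested on log2(FPKM + 1) with limma 3.58.1 in R 4.3.3 (moderated variance with trend, two-sided, no covariates), Benjamini-Hochberg adjustment across these genes and a threshold of 0.05. Differences on this scale understate changes of low genes. Of the low single-transcript genes, 77.8% to 82.4% lay within 0.1 fragment of whole steps after 150 bases were taken off the transcript length, against 20.0% by chance, which gave the depth. Lengths are from GENCODE vM21 transcripts (GRCm38). Summaries and plots used matplotlib 3.10.9, numpy 2.4.6, pandas 2.3.3 and Python 3.11.15. The fit was tested on simulated data.

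The genes, lists, motifs and tests were chosen with earlier results of these data known. Members named were, per subunit, the 6 with the largest rise, the 3 with the smallest or a fall, the 3 most and 2 least abundant, and 8 chosen for their role, and in each other list its extremes. The regulators were named in full. Mrpl10, Mrpl11, Mrpl17, Mrpl24, Mrpl47, Mrpl51, Mrps5, Ict1 and the head-to-head partners were named after their values were seen. No set test was run, and protein features were not analysed here. Alternatives were other pseudocounts (0.1, 0.5) and filters, quantile and median scaling, limma without trend, liver weights, a replicate block, each liver left out, a length and GC correction and, chosen after seeing the data, the same FPKM total per liver.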

Additional observations from a re-analysis of the deposited data

How the results depend on the processing

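No alternative brought a mitoribosomal gene to an adjusted p below 0.05 in limma, where the lowest adjusted p lay between 0.0795 (a quality weight per liver) and 0.336 (without control liver 3). Between-liver scaling moved the results most. With quantile normalization the medians of the large and small subunit were 0.069 and 0.086, 10 genes passed the unadjusted threshold, 15 had livers that did not overlap, and 15 of the 77 had a lower mean. Among the genes named by rule, the difference became negative for Mrpl18 (-0.15), Mrpl28 (-0.075), Mrpl33 (-0.083), Mrpl52 (-0.054), Mrps18a (-0.08) and Mrps21 (-0.022). With the same FPKM total, chosen after seeing the data, the medians were 0.007 and 0.046, 46 genes had a higher mean, 2 passed the unadjusted threshold with a higher and 1 with a lower mean, and 5 did not overlap, while 31 of the 77 had a lower mean. Among the genes named by rule, the difference then became negative for Mrpl18 (-0.18), Mrpl19 (-0.00088), Mrpl28 (-0.12), Mrpl33 (-0.12), Mrpl52 (-0.039), Mrps18a (-0.12), Mrps2 (-0.097), Mrps21 (-0.027) and Mrps36 (-0.052). Of all tested genes past the unadjusted threshold, 1327 were higher and 916 lower as deposited, 745 and 899 with quantile normalization, and 236 and 2504 with the same total. The share of all tested genes that were higher without overlap was counted only as deposited (15.4%). The 15 and 5 genes without overlap under the other scalings therefore have no such share to be read against. The same median turned Mrps17 to 0.00065, liver weights turned Mrpl18 to -0.035 and the length and GC correction to -0.052. The cause was not tested.

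With each liver left out in turn, 10 to 43 genes passed the unadjusted threshold and 34 to 62 did not overlap, the highest of both without lipophagy liver 3, and differences ranged from -0.022 to 0.045 for Mrpl18, -0.051 to 0.12 for Mrpl33 and -0.10 to 0.071 for Mrps17. The deviations of same-numbered livers correlated at 0.25, 0.234 and -0.0565 and those of differently numbered livers at -0.387 to 0.251. With so few livers these ranges cannot decide whether the replicate numbers pair them. With the replicate number as a block, 21 mitoribosomal genes passed the unadjusted threshold. Of all tested genes 43 then reached an adjusted p below 0.05 in limma, against 3 without the block. For the 29 members named by rule, 466 values under the alternatives kept their direction and 27 reversed. None passed the adjusted threshold in any fit, so no call could be lost. With 3 livers a group, an exact permutation test cannot give a p under 0.1, and the part of depth in the spread between livers was not tested.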
